A study of Mus musculus with 4 samples.

Results

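The small proline-rich protein (Sprr) genes code for building blocks of the cornified envelope, the tough shell of dead skin cells. Their RNA levels were examined in keratinocytes (KCs), the cells that build the epidermis, with and without an intact Nfat5 gene. The genes described are the 10 rows of the deposited tables that carry the names Sprr1a, Sprr1b, Sprr2b, Sprr2d, Sprr2e, Sprr2h, Sprr2i, Sprr2k, Sprr3 and Sprr4, out of 25814 genes listed and 16 whose name begins with Sprr. They were found by name, with no threshold on their values. The other 6 Sprr genes are given only for comparison. KCs came from the tail skin of adult 129/sv mice and were cultured without treatment in a serum-free medium holding 0.06 mM calcium. Polyadenylated RNA was sequenced from 2 WT libraries and 2 libraries labelled Nfat5-/-. The Nfat5-/- mice lack NFAT5, a transcription factor that responds to osmotic stress, and the WT mice were their siblings. The deletion was not stated to be limited to KCs, the labels give no time in culture, and a low-calcium culture favours basal over differentiated KCs.

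SPRR proteins are made late in the differentiation of stratified epithelia, where transglutaminases cross-link them to loricrin, involucrin and other envelope proteins. Each has a middle part built of short proline-rich repeats between ends that carry the glutamine and lysine residues used for cross-linking. The genes lie side by side in the epidermal differentiation complex, a cluster of genes for envelope proteins and S100 proteins. Sprr1a, Sprr1b and several Sprr2 genes are known to be switched on in injured or inflamed skin, and Sprr3 belongs mainly to the lining of the mouth and oesophagus.

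The repeats that give the family its name are visible in the coding sequence. Codons of the form CCN, which all code for proline, made up 31.9% of the codons of Sprr1a, 30.7% of Sprr1b, between 30.9% and 42.6% of the 6 Sprr2 genes, 20.6% of Sprr3 and 17.1% of Sprr4. The median over 21551 mouse genes was 5.28%. When each sequence was laid over itself, the best match lay at a shift of 24 bases, or 8 codons, in Sprr1a, Sprr1b, Sprr3 and Sprr4, and at 27 bases, or 9 codons, in the Sprr2 genes. The stretches below are shown because they separate the Sprr1 from the Sprr2 genes. Each holds 4 repeat units from exon 2 (GENCODE M21 annotation, build GRCm38), 5′ to 3′ on the coding strand, with the CCN codons in capitals.
Sprr1b, chr3:92437298-92437393, minus strand: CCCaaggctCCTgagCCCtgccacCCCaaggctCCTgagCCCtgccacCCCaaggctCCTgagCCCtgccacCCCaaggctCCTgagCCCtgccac
Sprr1a, chr3:92484390-92484485, minus strand: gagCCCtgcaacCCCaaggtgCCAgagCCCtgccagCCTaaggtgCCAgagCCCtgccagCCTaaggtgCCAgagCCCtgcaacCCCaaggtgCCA
Sprr2d, chr3:92340317-92340424, plus strand: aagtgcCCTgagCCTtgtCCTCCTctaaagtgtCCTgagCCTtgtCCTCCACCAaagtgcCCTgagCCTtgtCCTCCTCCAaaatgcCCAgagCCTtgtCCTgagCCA
Sprr2h, chr3:92386731-92386838, plus strand: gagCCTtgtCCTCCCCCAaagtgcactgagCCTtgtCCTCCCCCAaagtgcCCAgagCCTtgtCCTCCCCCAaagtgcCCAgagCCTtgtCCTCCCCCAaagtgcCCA
The 4 units of Sprr1b were identical, while in Sprr1a 2 of the 4 units had the sequence of the first. Of the 32 codons shown, 12 were CCN in Sprr1b and 12 in Sprr1a, against 18 and 19 of 36 in Sprr2d and Sprr2h.

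On GRCm38 the Sprr2 members ran along the plus strand of chromosome 3 in the order Sprr2b (chr3:92316620-92318085), Sprr2d (chr3:92339140-92340873), Sprr2e (chr3:92352143-92353449), Sprr2h (chr3:92385685-92387324), Sprr2i (chr3:92407991-92409271) and Sprr2k (chr3:92432582-92433925). On the minus strand followed Sprr1b (chr3:92436809-92438789), Sprr3 (chr3:92456502-92458720), Sprr1a (chr3:92483952-92485895) and Sprr4 (chr3:92500263-92500493). In the annotated transcript used for each gene, the whole coding sequence sat in exon 2 of 2 exons, except in Sprr4, which had 1 exon. The tables list 5 exons for Sprr2h. All 10 are annotated as protein-coding.

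Depth was 16219445 to 23494436 gene reads per library, so 3 reads amounted to 0.128 to 0.185 CPM (reads scaled to library size, for counting error only). The libraries were labelled by title alone. The Nfat5 gene had 408 and 929 reads in the WT libraries and 715 and 770 in those labelled Nfat5-/- (log2 fold change 0.09, standard error (SE) 0.26, adjusted p = 0.913 in edgeR's quasi-likelihood test), so the reads of the targeted gene do not separate the labels. The tables do not show which exons were deleted. All 6 basal KC markers had reads in every library, among them Krt14 at 5354 to 6985 RPKM in WT (RPKM are exon reads corrected for exon length and library depth). Among the keratins of differentiated layers, Krt1 was at no more than 0.811 RPKM, Krt10 at no more than 0.854 RPKM and Krt2 without a read in any library, while Krt80 was at 16.7 to 31.2 RPKM.

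**Figure D1:**
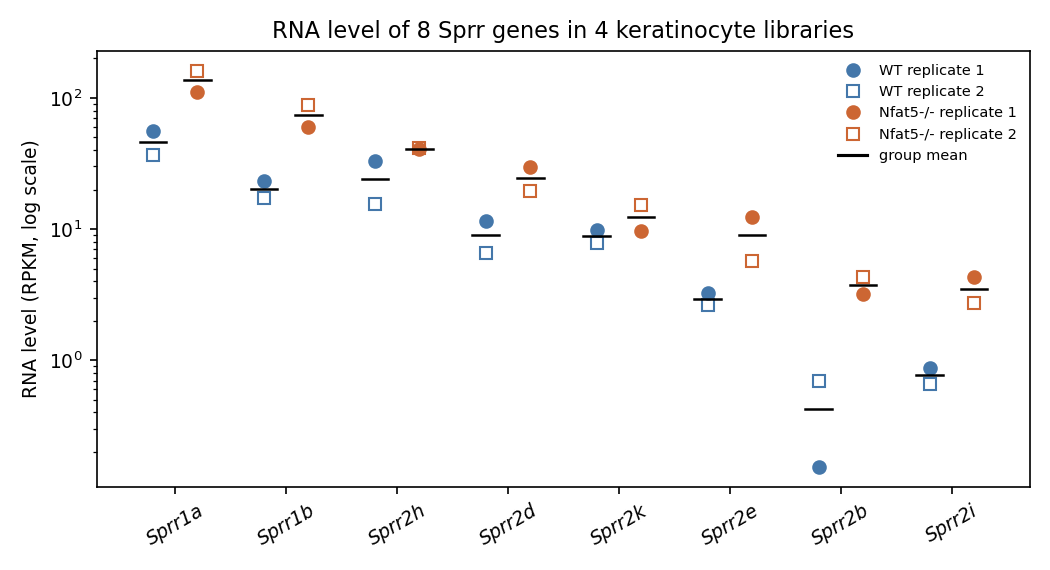
RNA level (RPKM, log scale) of the 8 Sprr genes that passed the filter, for each of the 4 libraries, with a black bar at the group mean. Circles are replicate 1 and squares replicate 2, blue for WT and orange for Nfat5-/-. Sprr1a is at the top in both groups, and Sprr2k is the gene whose groups overlap.

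The 10 genes covered a wide range of levels, compared here in RPKM, which corrects for exon length. In WT KCs, Sprr1a stood highest at 46.2 ± 13.4 RPKM (SD, n = 2). Sprr2h (24.2 ± 12.3) and Sprr1b (20.2 ± 4.42) followed, and the libraries of these 2 genes overlapped. Sprr2d (9.02 ± 3.48) and Sprr2k (8.84 ± 1.38) came next, again with overlapping libraries, then Sprr2e (2.95 ± 0.425). Sprr2i (0.768 ± 0.155) and Sprr2b (0.422 ± 0.380) also overlapped each other. Sprr3 and Sprr4 were at or near 0. In the Nfat5-/- libraries the order was Sprr1a, Sprr1b, Sprr2h, Sprr2d, Sprr2k, Sprr2e, Sprr2b, Sprr2i, Sprr3 and Sprr4, and the neighbours that overlapped were Sprr2k with Sprr2e and Sprr2b with Sprr2i. Sprr1b and Sprr2h were thus not separable in WT, while both Nfat5-/- libraries had Sprr1b above Sprr2h.

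The comparison of Nfat5-/- with WT asks how the loss of NFAT5 alters RNA levels in KCs. Both Sprr1 genes rose in the libraries labelled Nfat5-/-, where a gene is said to rise or fall at an adjusted p under 0.05. Sprr1b gave 23.3 and 17.1 RPKM in the WT libraries, and 60.4 and 88.0 RPKM in the Nfat5-/- libraries. Its level was thus 3.67 times as high on average, and each Nfat5-/- library lay above each WT library. The log2 fold change was 1.90 (SE 0.23, adjusted p = 0.0203, edgeR's quasi-likelihood test, n = 2 per group). Sprr1a gave 55.7 and 36.7 RPKM in WT, compared with 110 and 161 RPKM in Nfat5-/-, an average ratio of 2.93. Here too the groups were well apart, and the log2 fold change was 1.58 (SE 0.25, adjusted p = 0.0361, the same test). With replicate number added to the model of that test, Sprr1a did not pass (adjusted p = 0.0643) and Sprr1b did (adjusted p = 0.0297). In whole cultures, more Sprr1-expressing cells and more Sprr1 RNA per cell cannot be told apart. The sources do not tie each library to an animal, so the p-values measure the spread between these libraries only. Without Nfat5-/- replicate 2 the adjusted p was 0.0881 for Sprr1b and 0.203 for Sprr1a. Without Nfat5-/- replicate 1 it was 0.0433 and 0.0776.

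Sprr2b had the largest ratio of the tested members and the lowest level among them in WT. It was counted with 2 and 12 gene reads in the WT libraries and 60 and 64 in the Nfat5-/- libraries, or 0.153 and 0.691 RPKM against 3.18 and 4.28 RPKM. The average ratio was 8.82, and the log2 fold change of 3.04 (SE 0.53) lay at the threshold, with an adjusted p of 0.05001 in edgeR's quasi-likelihood test. Its size depended on the WT libraries: the RPKM ratio was 5.39 without WT replicate 1 and 24.3 without WT replicate 2. Sprr2i showed the next largest ratio, 4.57, from WT levels of 0.877 and 0.659 RPKM and Nfat5-/- levels of 4.31 and 2.72 RPKM. It did not pass that test (log2 fold change 2.22, SE 0.42, adjusted p = 0.0620), while DESeq2 called both genes (adjusted p = 0.00151 for Sprr2b and 0.0465 for Sprr2i). Both genes entered the test through their Nfat5-/- libraries, since only 1 WT library of each reached the filter's minimum of 0.497 CPM.

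Sprr2d and Sprr2e were higher in Nfat5-/- replicate 1 than in replicate 2. For Sprr2d the WT libraries gave 11.5 and 6.56 RPKM, the Nfat5-/- libraries 29.6 and 19.5 RPKM. The groups did not overlap, with a ratio of 2.72 and a log2 fold change of 1.48 (SE 0.30, adjusted p = 0.0765). For Sprr2e the values were 3.25 and 2.65 RPKM (WT) and 12.3 and 5.67 RPKM (Nfat5-/-). Its log2 fold change of 1.63 had an SE of 0.39, wider than those of the Sprr1 genes, and an adjusted p of 0.108. Without Nfat5-/- replicate 1 its RPKM ratio was 1.92 and its log2 fold change 0.98. Neither gene passed in edgeR's quasi-likelihood test of gene reads with the filter on and genotype as the only term. DESeq2 called both (adjusted p = 0.00068 for Sprr2d and 0.0235 for Sprr2e). Without the filter the edgeR test called both too. With replicate number added to the model it called Sprr2d (adjusted p = 0.0270).

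The smallest differences among the tested members were those of Sprr2h and Sprr2k. Sprr2h gave 33.0 and 15.5 RPKM in WT, compared with 40.6 and 41.2 RPKM in Nfat5-/-. The Nfat5-/- libraries were nearly equal, and the spread lay between the WT libraries (log2 fold change 0.79, SE 0.30, adjusted p = 0.302). Without WT replicate 1 its adjusted p was 0.00385 and its log2 fold change 1.43, and without WT replicate 2 they were 0.339 and 0.33. Sprr2k gave 9.82 and 7.87 RPKM in WT, compared with 9.58 and 15.2 RPKM in Nfat5-/-, so its groups overlapped (log2 fold change 0.51, SE 0.27, adjusted p = 0.448).

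The remaining members were barely read. Sprr3 had 1 and 0 reads in WT and 6 and 13 reads in Nfat5-/-, too few for the filter, and no test was made with the filter on. Summed over the libraries of each group, 19 reads stood against 1, a CPM ratio of 17.1 with an exact 95% interval of 2.71 to 709 that covers counting error only. Sprr4 had no read in any library. A count of 0 in 79972283 gene reads allows a level of up to 0.0375 CPM over the libraries together.

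**Figure D2:**
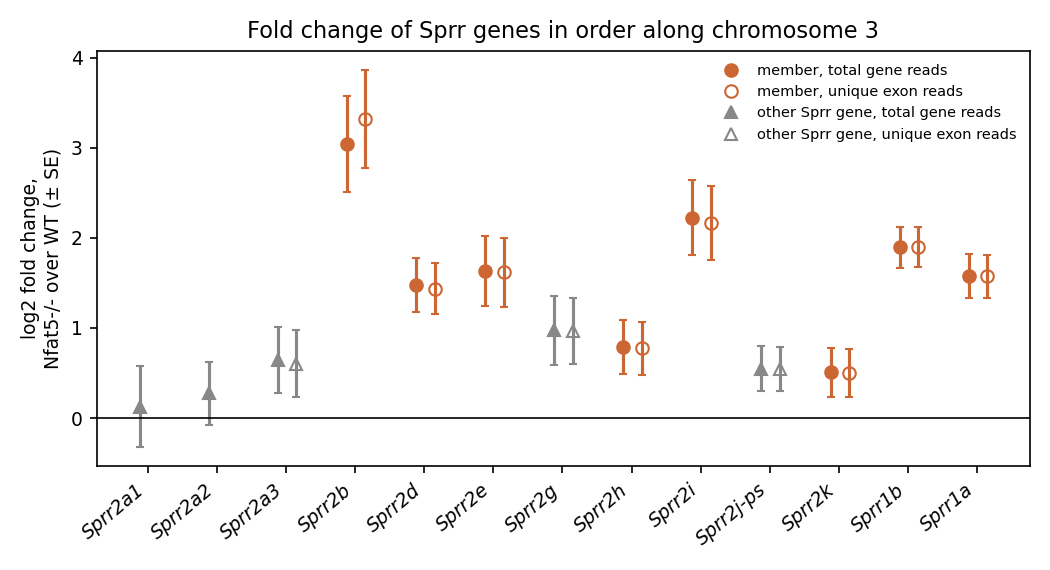
Log2 fold change of RNA level, Nfat5-/- over WT, with SE bars, for the 13 tested Sprr genes in their order along chromosome 3. Filled symbols are from total gene reads and open symbols from exon reads placed at a single site, and orange marks the members and grey the other Sprr genes. Every point lies above 0, and the 3 genes at the left end, Sprr2a1 to Sprr2a3, are among the lowest.

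Of the 10 members, 8 passed the filter, and 2 of these, Sprr1b and Sprr1a, were called higher and 0 lower, where 0.943% of all 12614 genes tested were called higher and 0.325% lower. At an unadjusted p under 0.05 the test gave 7 members higher, all but Sprr2k, and 0 lower, beside 8.17% of all genes that were higher at that level. All 8 log2 fold changes were above 0, against 48.0% of all genes. Both Nfat5-/- libraries exceeded both WT libraries in 7 of the 8, a pattern found in 23.3% of all genes. Since Sprr2b and Sprr2i came in through their Nfat5-/- libraries, these counts describe the tested members and not the family. The study itself picks out Sprr1a, Sprr1b, Sprr2b, Sprr2d, Sprr2e, Sprr2h and Sprr2i from these libraries, so their shared direction is not independent evidence. The count of calls moved with the libraries and the tool. With 1 library left out it was 0 of 8 without Nfat5-/- replicate 2 (6 at an unadjusted p under 0.05) and 1 of 8 without Nfat5-/- replicate 1, where 0.0995% and 0.217% of all genes were called higher. It was 5 of 9 without WT replicate 1 and 3 of 9 without WT replicate 2, where 1.53% and 2.18% of all genes were. DESeq2 called 6 of 8, beside 2.31% of all genes, and limma 4 of 8, beside 1.08%. Without a filter 9 members were tested and 8 called, Sprr3 among them and Sprr2k not, beside 4.01% of all genes. On RPKM, the scale the study works on, the mean of Nfat5-/- was at least 2 times that of WT in 6 of the 8 tested members and in 3.98% of all genes. The log2 fold changes of all 8 stayed above 0 under each of the 13 alternatives tried.

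Added up, the 10 members summed to 109 and 69.3 CPM in WT and 214 and 273 CPM in Nfat5-/-. The 2 Sprr1 genes made up most of this. By RPKM, Sprr1a held 40.5% and 41.8% of the members' sum in WT and 40.7% and 47.7% in Nfat5-/-. The share of Sprr1b was 17.0% and 19.5% in WT and 22.4% and 26.0% in Nfat5-/-. The share of Sprr2h went the other way, with 23.9% and 17.7% in WT and 15.0% and 12.2% in Nfat5-/-. Sprr2k likewise held 7.14% and 8.97% in WT and 3.55% and 4.50% in Nfat5-/-. The libraries of the groups did not overlap in these last 3 shares, which were not tested.

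Near-identical copies could lend reads to each other, so the reads placed at a single site were examined beside all exon reads. Over the members together, 99.2% to 99.7% of the exon reads of a library were unique. The share was 100% for Sprr1a, Sprr1b, Sprr2k and Sprr3, 99.8% for Sprr2h, 97.7% for Sprr2d, 93.7% for Sprr2e, 91.2% for Sprr2i and 87.0% for Sprr2b. The sequences give a like order: of all stretches of 59 bases in the annotated transcripts, 97.1% of those of Sprr2d, 92.0% of Sprr2e, 90.7% of Sprr2i and 89.7% of Sprr2b occurred in no other gene, and 100% of those of the other members. Sprr2e and Sprr2i shared 47 such stretches with each other, and Sprr2b shared 74 with Sprr2a1.

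On unique exon reads alone the ratios hardly moved, except that of Sprr2b, which was 8.82 in RPKM. They were 3.66 for Sprr1b, 2.92 for Sprr1a, 2.65 for Sprr2d, 3.01 for Sprr2e and 4.42 for Sprr2i as CPM of unique exon reads. Sprr2b had 1 and 9 unique exon reads in WT and 55 in each Nfat5-/- library, a ratio of 11.1. Fitted on unique exon reads, edgeR's quasi-likelihood test called 4 members higher, beside 1.4% of all genes: Sprr1b (adjusted p = 0.0115), Sprr1a (0.0232), Sprr2b (0.0298) and Sprr2i (0.0443). Sprr2d (0.0524) and Sprr2e (0.0866) stayed outside the threshold, as did Sprr2h and Sprr2k.

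Reads that cross the junction of the exons, which come from spliced RNA, gave a further view. Sprr1b had 42 and 51 junction reads in WT and 193 and 211 in Nfat5-/-. Sprr1a had 47 and 52 in WT and 140 and 168 in Nfat5-/-. Sprr2d had 19 and 15 in WT and 49 and 30 in Nfat5-/-. As CPM the group means were 2.47 and 9.77 for Sprr1b, 2.65 and 7.48 for Sprr1a and 0.933 and 1.85 for Sprr2d, so the spliced reads of these genes were higher in Nfat5-/- as well, without a test. Sprr2e had 1 and 0 against 15 and 5 junction reads. Sprr2h had 46 and 23 in WT and 61 and 49 in Nfat5-/-, with mean CPM of 1.95 and 2.61, and its groups overlapped once scaled to depth.

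The Sprr genes outside the list were compared in the same fit. Sprr2a2 carried more reads than any other Sprr gene, with 2662 and 2038 exon reads in WT and 2433 and 3811 in Nfat5-/-, and its groups overlapped (log2 fold change 0.27, SE 0.35, adjusted p = 0.775). Of its exon reads, 1 in all 4 libraries was unique, and its listed region overlaps that of Sprr2a1, so its value cannot be split from its copies. It took 54.8% and 52.2% of all Sprr exon reads in WT and 29.9% and 39.7% in Nfat5-/-. Sprr2a1 (0.13), Sprr2a3 (0.64), Sprr2g (0.97) and Sprr2j-ps (0.55) are given by their log2 fold changes and did not pass with the filter on. Sprr2f, with 4 reads in WT and 13 in Nfat5-/-, was not tested. With the filter on, 0 of the 5 tested were called by edgeR, DESeq2 or limma, and 1 had an unadjusted p under 0.05 in edgeR. Without the filter edgeR called Sprr2a3 (adjusted p = 0.00483) and Sprr2g (adjusted p = 0.0136) higher, beside 8 of 9 members tested in that setting. No difference between the members and these genes was tested.

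**Figure D3:**
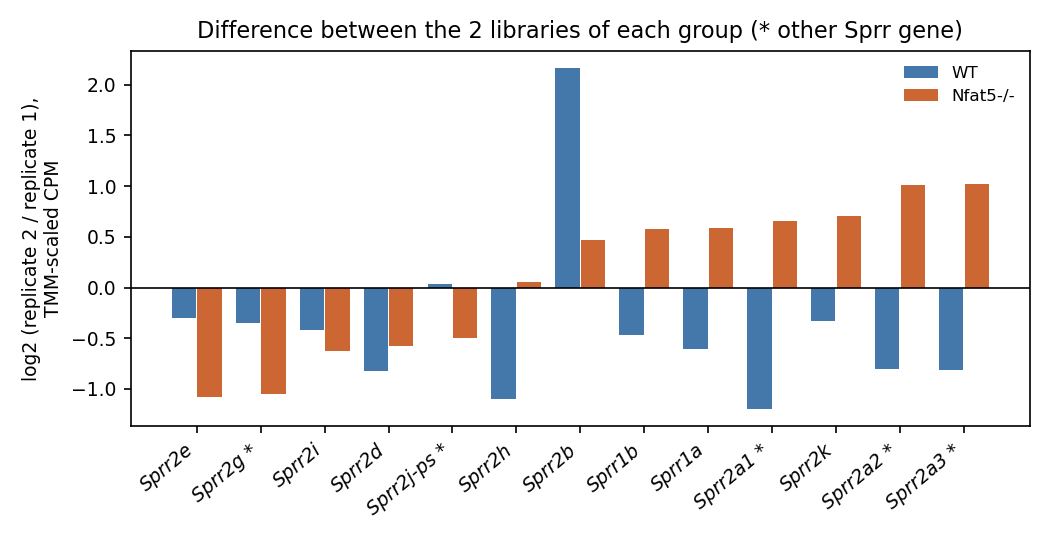
Log2 ratio of replicate 2 over replicate 1 within each group (blue WT, orange Nfat5-/-), from TMM-scaled CPM, for the 13 tested Sprr genes sorted by the Nfat5-/- value. An asterisk marks genes outside the list. In Nfat5-/- the bars run from Sprr2e at -1.08 to Sprr2a3 at 1.02, so the 2 libraries differed in opposite directions for different Sprr genes.

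The 2 Nfat5-/- libraries did not rank alike for all members. Replicate 1 was the higher one for Sprr2e, Sprr2i and Sprr2d, with log2 ratios of replicate 2 over replicate 1 of -1.08, -0.63 and -0.58. Replicate 2 was higher for Sprr2k (0.70), Sprr1a (0.59), Sprr1b (0.58) and Sprr2b (0.46), and the libraries were nearly equal for Sprr2h (0.06). In WT, replicate 2 was the lower library for every tested member but Sprr2b, with log2 ratios from -1.09 for Sprr2h to -0.30 for Sprr2e. Sprr2b, with 2 and 12 reads, had a log2 ratio of 2.17. With 2 libraries per group these differences have no replicate check.

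The promoters were then searched for letters known from studies of Sprr control, in the 250 bases before the annotated start (RefSeq, GRCm38.p6, both strands). All 10 members had a promoter sequence, and 32851 promoters of mouse genes served for comparison. The letters TGANTCA, the core bound by AP-1 factors searched with any base in the middle, occurred in 8 of 10 members. Sprr3 and Sprr4 lacked them, and 6.75% of all promoters held them. In the Sprr2 members a match began 193 to 198 bases before the start, in Sprr1b 111 bases, and in Sprr1a 146 and 116 bases. The windows below show this core in capitals with 30 bases on each side. They are printed because the members that had reads in every library all carry it, and lie outside the listed genes.
Sprr2b, chr3:92316480-92316546, plus strand: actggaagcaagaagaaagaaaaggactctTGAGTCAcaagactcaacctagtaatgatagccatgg
Sprr2d, chr3:92338917-92338983, plus strand: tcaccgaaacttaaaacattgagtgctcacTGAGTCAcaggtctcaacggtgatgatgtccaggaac
Sprr2k, chr3:92432370-92432436, plus strand: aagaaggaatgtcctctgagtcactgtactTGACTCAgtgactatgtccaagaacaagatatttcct
Sprr1b, chr3:92438854-92438920, minus strand: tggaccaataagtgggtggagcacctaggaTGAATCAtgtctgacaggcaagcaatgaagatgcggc
Sprr1a, chr3:92485961-92486027, minus strand: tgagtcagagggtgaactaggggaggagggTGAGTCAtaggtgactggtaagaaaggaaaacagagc
The Sprr2k and Sprr1a windows each hold a second match, in lower case here, to the left of the one in capitals. Sprr2k, whose groups overlapped, held a match to the searched letters, as did Sprr1b and Sprr1a, which rose. The middle base of the match in capitals differed among these genes. Whether a match goes with a change in RNA level was not tested.

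**Figure D4:**
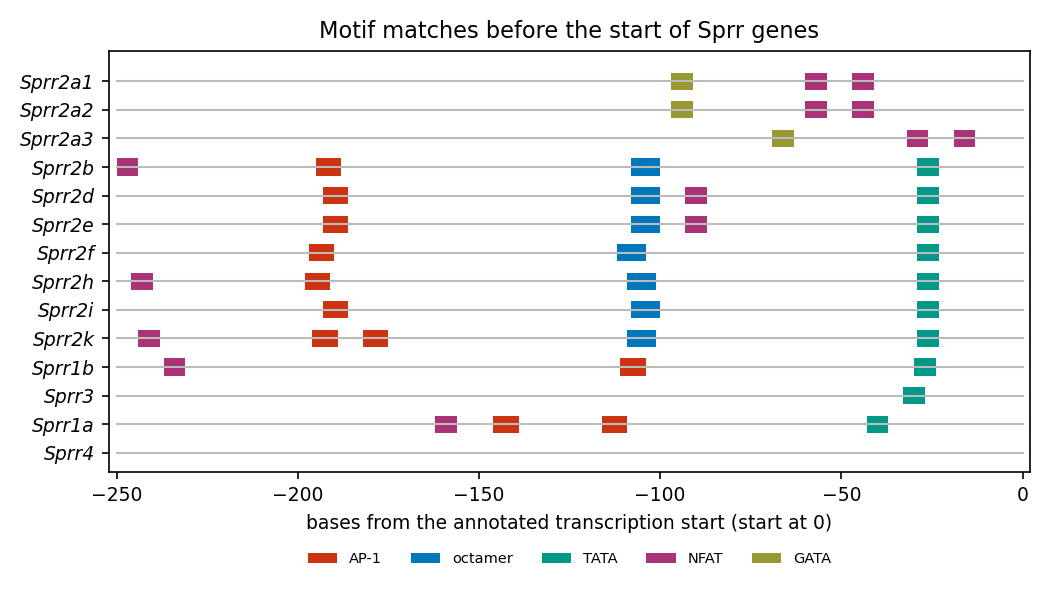
Places of 5 motifs in the 250 bases before the annotated start of 14 Sprr genes with a RefSeq promoter, in bases from the start. The motifs are those spelled out in the text. The 6 Sprr2 members share the places of the AP-1, octamer and TATA matches, and Sprr4 has no match.

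Other letters divided the family further. TATAAA, the TATA box, was found in 9 of 10 members, all but Sprr4, and in 12.4% of all promoters. ATGCAAAT, the octamer read by POU factors, was found in the 6 Sprr2 members, 108 or 109 bases before the start, and in no Sprr1 gene, Sprr3 or Sprr4. It occurred in 1.60% of all promoters. TGGAAA, the core common to NFAT sites, occurred in 7 of 10 members, in all but Sprr2i, Sprr3 and Sprr4, against 18.6% of all promoters. Its place differed among the members, from 93 bases before the start in Sprr2d and Sprr2e to 250 bases in Sprr2b. CACCC, part of sites for Krüppel-like factors, occurred in 5 of 10 members and in 52.0% of all promoters. The interferon-stimulated response element was in 0 of 10 members and in 2.98% of promoters. GATAAG was in 0 of 10 members and 6.55% of promoters, and was present in Sprr2a1, Sprr2a2 and Sprr2a3, which had none of the AP-1, TATA and octamer letters in this window but did hold the NFAT core. Sprr2f, outside the list too, held the AP-1, TATA and octamer letters 197, 29 and 112 bases before the start, near their places in the Sprr2 members. Close copies share ancestry, so matches in several Sprr2 promoters are not separate instances, and a match is a run of letters and not a site shown to be bound.

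**Figure D5:**
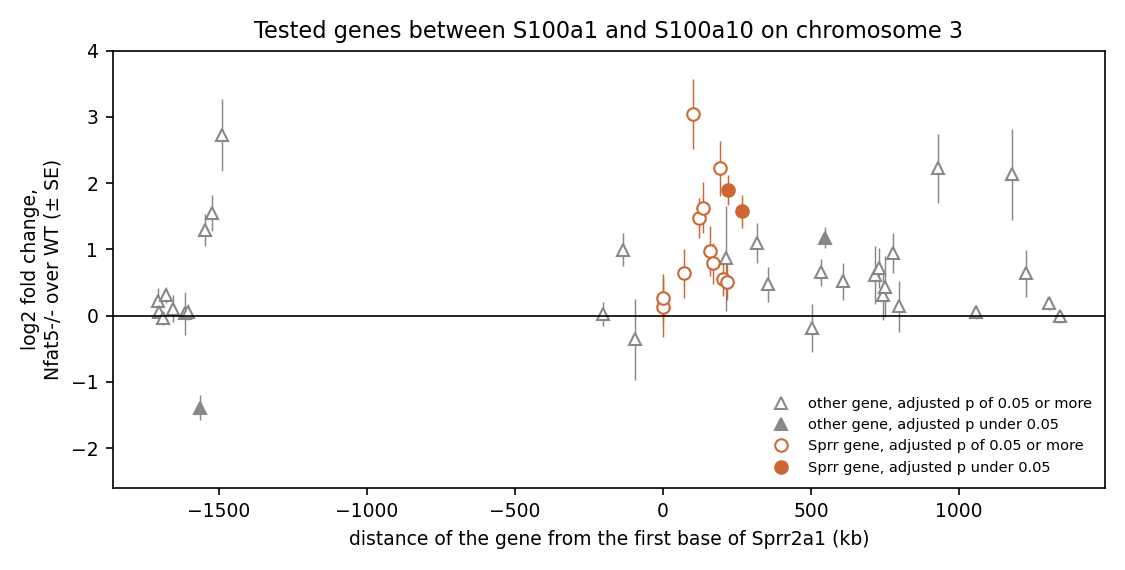
Log2 fold change, Nfat5-/- over WT, with SE bars, of the tested genes from S100a1 to S100a10 on chromosome 3, against distance from the first base of Sprr2a1 in kb. Circles are Sprr genes and triangles other genes, and filled symbols have an adjusted p under 0.05. Outside the Sprr genes, Lce1h is the filled triangle above 0 and S100a7a the one below.

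The neighbours of the family were described from the same fit. The stretch from S100a1 to S100a10 holds 64 listed genes outside the Sprr family, of which 33 were tested. In edgeR 1 rose (Lce1h) and 1 fell (S100a7a), where 0.943% of all genes rose and 0.325% fell. DESeq2 called 4 higher, Lce1h, Crnn, S100a8 and S100a9, limma 3 higher, these without Crnn, and both called S100a7a lower. Of all genes, DESeq2 called 2.31% higher and limma on log2(RPKM + 1) 1.08%. Lce1h, a late cornified envelope gene, gave 30.1 and 26.3 RPKM (WT) and 55.2 and 69.7 RPKM (Nfat5-/-), with a log2 fold change of 1.17 (SE 0.16, adjusted p = 0.0251, edgeR's quasi-likelihood test). S100a7a gave 8.46 and 7.23 RPKM in WT, compared with 2.82 and 3.19 RPKM in Nfat5-/- (log2 fold change -1.39, SE 0.18, adjusted p = 0.0251). The log2 fold change was above 0 in 28 of the 33, with a median of 0.44 against -0.01 for all genes, and the groups were apart in the higher direction in 18 and in the lower in 2, patterns found in 23.3% and 24.5% of all genes. Pglyrp4 entered the test through its Nfat5-/- libraries, with both WT libraries under the filter's minimum. Without it the counts were 27 of 32 above 0 and 17 apart in the higher direction, with a median of 0.38. These counts still hold Lce3b, Gm9774 and Prr9, each with 1 WT library under that minimum (7, 6 and 8 reads). Their log2 fold changes were 0.61, 0.87 and -0.36. S100a9 and S100a8, partners in calprotectin, had log2 fold changes of 1.55 (adjusted p = 0.0510) and 1.29 (adjusted p = 0.0563).

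Most tested genes whose products work with the SPRR proteins had log2 fold changes above 0, and fewer passed the threshold. Among 34 other envelope genes of the complex, 17 were tested, Lce3b and Prr9 with 1 WT library under the filter's minimum. In edgeR 1 rose (Lce1h) and 0 fell, with 7 higher and 0 lower at an unadjusted p under 0.05. Of all genes tested, 0.943% rose and 8.17% were higher at the unadjusted level. The log2 fold change was above 0 in 15 of the 17, with a median of 0.61, against 48.0% of all genes. DESeq2 called 2 higher, Lce1h and Crnn, and limma on log2(RPKM + 1) Lce1h alone, beside 2.31% and 1.08% of all genes. Both called 0 lower. Lor, the gene of loricrin, the main envelope protein, gave 2.54 and 2.59 RPKM in WT, compared with 3.94 and 6.07 RPKM in Nfat5-/- (log2 fold change 0.998, adjusted p = 0.134). Ivl, the gene of involucrin, gave 1.75 and 1.27 against 2.10 and 1.99 RPKM (log2 fold change 0.47, adjusted p = 0.461). Sprr1a thus stood far above Lor and Ivl in RPKM in every library.

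Of 17 envelope genes elsewhere in the genome, all tested, 5 rose and 0 fell in edgeR, beside 0.943% of all genes that rose. The log2 fold change was above 0 in 16 of the 17, with a median of 1.12. At an unadjusted p under 0.05, 12 were higher and 0 lower, beside 8.17% of all genes that were higher. Among the 12, Tgm5 entered the test through its Nfat5-/- libraries. DESeq2 called 9 higher, Tgm1 among them, and limma 4 on log2(RPKM + 1), beside 2.31% and 1.08% of all genes. Both called 0 lower. Tgm3, a transglutaminase that cross-links SPRR proteins, gave 0.145 and 0.120 against 0.693 and 0.811 RPKM (log2 fold change 2.48, SE 0.35, adjusted p = 0.0252). Tgm1, the main transglutaminase of KCs, was at 2.80 ± 1.23 RPKM (SD, n = 2) against 8.36 ± 3.35 RPKM (SD, n = 2), and did not pass in edgeR (log2 fold change 1.60, SE 0.35, adjusted p = 0.0874). Cnfn, the gene of cornifelin, gave 5.19 and 4.84 against 21.0 and 21.1 RPKM (log2 fold change 2.07, SE 0.17, adjusted p = 0.00579). The other risers were Krtdap (2.53), Csta1 (1.46) and Anxa1 (0.60), by their log2 fold changes.

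The list of transcription factors of KC differentiation had 24 genes, of which 23 were tested. In edgeR 2 rose and 0 fell, with 11 higher and 0 lower at an unadjusted p under 0.05. Of all genes tested, 0.943% rose and 8.17% were higher at the unadjusted level. The log2 fold change was above 0 in 19 of the 23, with a median of 0.22, against 48.0% of all genes. DESeq2 called 6 higher (Fos, Fosl2, Grhl1, Grhl3, Hopx and Zfp750) and limma 3 on log2(RPKM + 1), beside 2.31% and 1.08% of all genes. Both called 0 lower. Fos, a part of AP-1, gave 10.7 and 10.2 against 17.1 and 17.8 RPKM (log2 fold change 0.76, SE 0.11, adjusted p = 0.0319). Fosl1 (0.49), Fosl2 (0.52), Jun (0.17), Junb (0.10) and Jund (-0.16) are given by their log2 fold changes and did not pass in edgeR. Grhl3, a factor of barrier formation, gave 2.72 and 3.22 against 6.52 and 6.37 RPKM (log2 fold change 1.11, SE 0.15, adjusted p = 0.0252). Pou2f3, an octamer factor of the epidermis, had no exon read in any library, and its 5 and 4 gene reads in WT and 9 and 4 in Nfat5-/- were too few to test. Of the 4 keratins of wounded skin, Krt17 rose (log2 fold change 0.72, SE 0.12, adjusted p = 0.0399) and the other 3 did not pass in edgeR, while DESeq2 also called Krt16.

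Markers of other cell types moved with the genotype too. Over all genes tested, edgeR called 0.943% higher and 0.325% lower. Of 5 smooth muscle markers 4 were tested, and Acta2, Tagln, Cnn1 and Myh11 rose in edgeR. Myh11 entered the test through its Nfat5-/- libraries, with 1 read in each WT library. The list summed to 151 to 184 RPKM in WT and 518 to 819 RPKM in Nfat5-/-. The fifth marker, Des, had 1 read in the 4 libraries together. DESeq2 called the same 4 genes higher, and limma Acta2 and Tagln on log2(RPKM + 1), with Cnn1 added on log2(RPKM + 0.1). Of 8 keratins and stem cell genes of other epithelia, 5 were tested, Krt19 and Krt15 through their Nfat5-/- libraries. Krt7, Krt8 and Krt18 rose, and the list summed to 408 to 673 RPKM in WT and 1495 to 1681 RPKM in Nfat5-/-. Krt4 and Krt13, which accompany Sprr3 in the mouth and oesophagus, were at no more than 0.058 RPKM in any library. Of 5 melanocyte markers, 4 were tested, Tyr through its WT libraries, and in all 4 both Nfat5-/- libraries lay below both WT libraries. Tyrp1 fell, 3 were lower at an unadjusted p under 0.05 in edgeR, DESeq2 called Pmel and Tyrp1 lower, and the list summed to 6.99 to 7.29 RPKM in WT and 2.04 to 2.89 RPKM in Nfat5-/-. The 6 fibroblast markers summed to no more than 1.13 RPKM and the 4 endothelial markers to no more than 0.777 RPKM, and the 6 immune markers to 16.8 to 22.7 RPKM in WT and 19.8 to 20.0 RPKM in Nfat5-/-. In these last 3 lists edgeR with the filter on, DESeq2 and limma called 0 genes and 0 had an unadjusted p under 0.05 in edgeR. Of the basal markers 6 were tested and of the suprabasal ones 4 of 6, with 0 calls by edgeR with the filter on, DESeq2 or limma. At an unadjusted p under 0.05 in edgeR, 1 basal marker was lower and 3 suprabasal markers were higher, Krt1, Krt78 and Krt80, of which Krt1 entered the test through its Nfat5-/- libraries. Krt10, the other one tested, lay lower in both Nfat5-/- libraries (0.550 and 0.520 RPKM) than in both WT libraries (0.854 and 0.684 RPKM), without passing the test. The suprabasal list summed to 18.9 to 21.6 RPKM in WT and 24.7 to 34.6 RPKM in Nfat5-/-, most of it from Krt80 (18.5 and 26.9 RPKM on average). What part any of these has in the Sprr values was not tested.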

How the data were processed

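RNA-seq of tail KCs was taken from 2 WT and 2 Nfat5-/- libraries, grouped by title. The authors aligned the reads to GRCm38 with the CLC Genomics Workbench at default settings. The deposited tables give raw counts per gene (gene, exon, unique exon, junction and intron reads) and RPKM values, which the authors computed per exon length and mapped reads and wrote with decimal commas. Counting was not stated to use strand. Depth was 16219445 to 23494436 gene reads.

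Gene reads were filtered with filterByExpr (minimum count 10), scaled by TMM and fitted with genotype as the only term in edgeR 4.0.16 (quasi-likelihood test, two-sided, Benjamini-Hochberg adjustment over all genes tested, threshold 0.05) in R 4.3.3. SE is the standard error of a log2 fold change. The test was tried on simulated counts. Alternatives were other size factors, no filter, DESeq2 1.42.0, exon and unique exon reads, a replicate block, limma 3.58.1 on log2(RPKM + 1) and log2(RPKM + 0.1) with at least 0.5 RPKM in 2 libraries, and each library left out. The genes named are the members, all other Sprr genes, the marker and pathway lists, the called genes of the complex and Nfat5. Members, lists and motifs were chosen with earlier results of these data known. Sequences came from GENCODE M21 and RefSeq.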

Additional observations from a re-analysis of the deposited data

How the results depend on the processing

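The 2 calls among the members, 160 among all genes, 9 in the other envelope, factor and keratin lists and 2 among the other genes of the complex depended on the setting. In that order the counts were 8, 1137, 32 and 11 without a filter and 6, 416, 19 and 5 in DESeq2. Members and genes of the complex were 4 and 4 on unique exon reads, and 4 and 4 in limma with either pseudocount. Library totals gave 14 in the lists and 4 in the complex. Leaving out 1 library, with the lone one assumed to vary like the others, gave 0 to 5 members, 16 to 478 genes, 0 to 16 in the lists and 0 to 5 in the complex, the lowest without Nfat5-/- replicate 2, where 6 members had an unadjusted p under 0.05. The median RPKM ratio of the tested members, 2.98, lay between 2.59 and 3.71 under its alternatives. Same-numbered libraries did not deviate together (r = -0.07 over 12614 genes). With 2 libraries per group this cannot tell whether the numbers mark pairs, and no pairing is stated. With the replicate block 3 members were called, Sprr2b, Sprr2d and Sprr1b (Sprr1a had an adjusted p of 0.0643), and 132 genes in all. Of the single-gene values, 1237 kept their side of the threshold, 96 passed it only under the alternative, 46 lost it and none of the calls turned direction. Each group had 2 libraries, and Sprr2b had as few as 2 reads in one of them.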
